A study of Mus musculus with 30 samples.

Results

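The constitutive proteasome genes are described here across 30 libraries of mouse liver. They were taken by symbol: every row of the deposited table named Psma, Psmb, Psmc, Psmd, Psme, Psmf or Psmg with a number, leaving out the immunoproteasome subunits Psmb8, Psmb9 and Psmb10. The rule gave 45 of the 29117 genes in the table. The study used C57BL/6J mice, an inbred laboratory strain, aged 10 weeks and fasted for 12 to 16 h. Tested mice received human insulin at 0.7 U/kg by intraperitoneal injection (IP), and control mice received phosphate-buffered saline (PBS), with no genetic change in either group. Polyadenylated RNA of the left liver lobe was sequenced in triplicate for each treatment at 5 points within 4 h of the injection, which makes 15 insulin and 15 PBS libraries. The labels number the points without giving minutes, and the fast and the injection itself were shared by both treatments.

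The proteasome is the protease complex that degrades proteins tagged with ubiquitin. Its core particle, called 20S, is a barrel of alpha rings, which form the gate, and beta rings, which hold the protease sites. The regulatory particle, called 19S, caps the barrel: its ATPases unfold the substrate, and its other subunits bind ubiquitin and remove it. Other activators can take the place of the 19S cap, and dedicated chaperones assemble core and cap without staying in the finished complex. In mammalian cells the transcription factor Nfe2l1 raises proteasome genes together when proteasome activity is low, and in liver the complex works beside autophagy in the turnover of proteins during fasting.

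Of the 45 genes, 43 were at 1 FPKM or more in at least 3 libraries and were tested. FPKM, the deposited unit, is a fragment count divided by transcript length and by the mapped fragments of the library. The 2 left out were Psma8, an alpha subunit of testis with a mean of 0.389 FPKM, and Psmb11, a beta subunit of the thymus cortex that held no value in 26 of the 30 libraries. Of the 43, every gene but Psmg4 was at 1 FPKM or more in every library, and Psmg4 was so in 27, so the filter favoured neither treatment for the other 42. The genes that overlap another gene's exons in the annotation numbered 11, of which 3 (Psmb5, Psmd1 and Psmg3) overlap one on the same strand, and 5 rows of the table are named as copies of a member (Psme2b and pseudogenes of Psmb5, Psmb6 and Psmb7). For these genes the split of reads was made by the authors' quantification and is uncertain.

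Subunits of the finished complex lay high: the tested alpha subunits had means of 18.5 (Psma2) to 87.1 FPKM (Psma6), the beta subunits up to 103.8 FPKM (Psmb7), the ATPases 38.8 (Psmc5) to 58.9 FPKM (Psmc1), and the non-ATPase subunits of the cap 28.4 (Psmd3) to 57.8 FPKM (Psmd4). Most chaperones lay lower, with Psmg4 at 4.36, Psmg1 at 10.5, Psmd10 at 6.19 and Psmd9 at 18.6 FPKM on average. Psmf1, which encodes the inhibitor PI31, averaged 5.30 FPKM. Levels per length can be compared between genes, and they are levels of RNA, not of complexes.

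**Figure D1:**
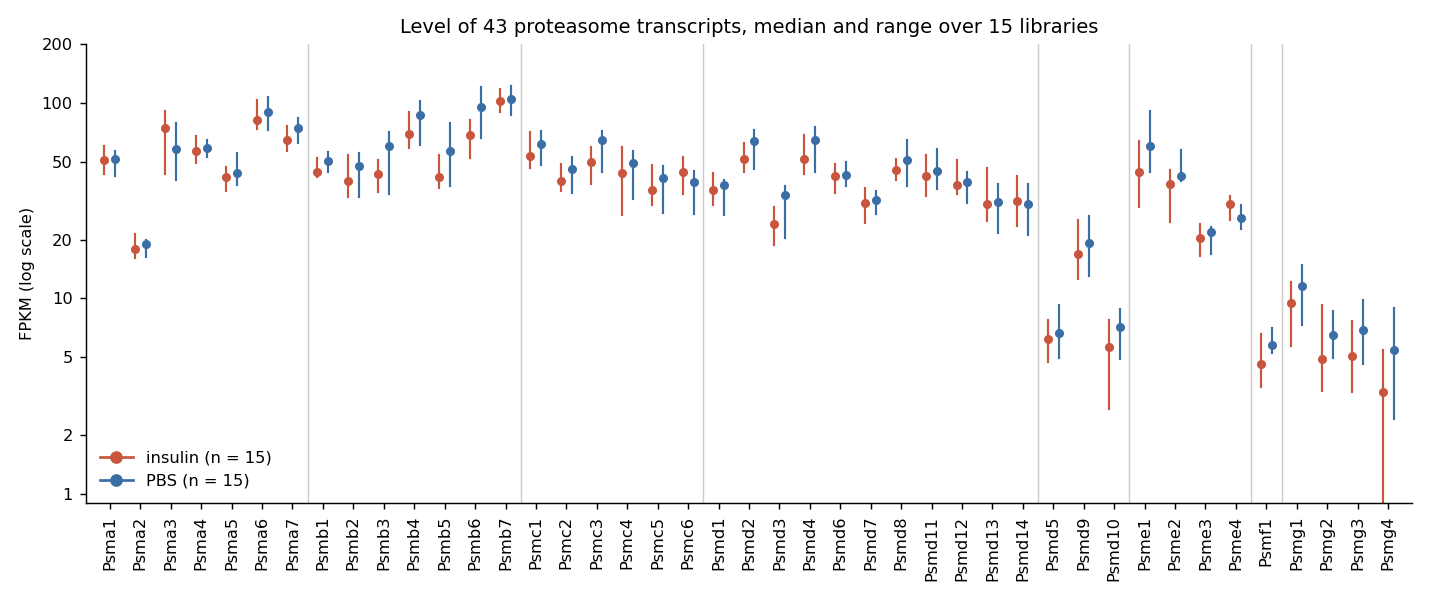
FPKM (log scale) of the 43 tested genes, grouped from left to right as alpha ring, beta ring, ATPases, non-ATPases, assembly chaperones of the cap, activators, inhibitor and assembly chaperones of the core; points are medians and lines the range over 15 insulin and 15 PBS libraries. Most chaperones and the inhibitor lie below the subunits of the complex, and the ranges of the treatments overlap for every gene; the Psmg4 line for insulin runs to 0.

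These genes varied little between libraries. The SD of log2(FPKM + 1) over the 30 libraries had a median of 0.21 for the 43 genes, against 0.27 for all 13589 genes tested and 0.25 for the 6606 genes in the same range of mean FPKM. The steadiest were Psmb7, Psma2, Psma4 and Psmb1, with SDs of 0.11, 0.11, 0.11 and 0.12, and the most variable were Psmg4 (0.86), Psmg3 (0.36) and Psme1 (0.33). Psmb7, the trypsin-like catalytic subunit, ran from 90.2 to 118 FPKM with a median of 102 FPKM in insulin libraries, and from 86.6 to 122 FPKM with a median of 105 FPKM in PBS libraries.

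One property of the libraries ran along with treatment and touches every difference below. For each library, a gene's deviation from its own mean over the 30 libraries was set against the GC content of its transcript. Across genes Spearman's rho was negative in 15 of 15 insulin libraries (-0.35 to -0.0036) and positive in 13 of 15 PBS libraries, whose full range was -0.32 to 0.47. The 2 PBS libraries with a negative rho were replicate 1 at points 1 and 2 (-0.32 and -0.29). PBS replicate 1 at points 3, 4 and 5, from the same lane 3, had 0.41, 0.28 and 0.30. Insulin libraries came from lanes 1 and 2 and PBS libraries from lanes 3, 4 and 5, as the labels give them. Lanes 3, 4 and 5 held PBS replicates 1, 2 and 3 in that order, so leaving out a PBS replicate number leaves out a lane. Lane and treatment therefore cannot be told apart, and the differences of named genes are mostly given also after the trend with GC content was removed from every library. That removal was added after the data had been seen, and it also sets the median difference of all genes close to 0. Depth, estimated roughly from the steps that single reads leave in low values, was 19.9 to 36.3 M reads in insulin libraries and 20.4 to 40.9 M reads in PBS libraries. Hepatocyte markers such as Alb and Ttr were high, as the liver label has it: 7 of them summed to between 35022 and 49291 FPKM in insulin libraries and between 38937 and 49798 FPKM in PBS libraries.

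**Figure D2:**
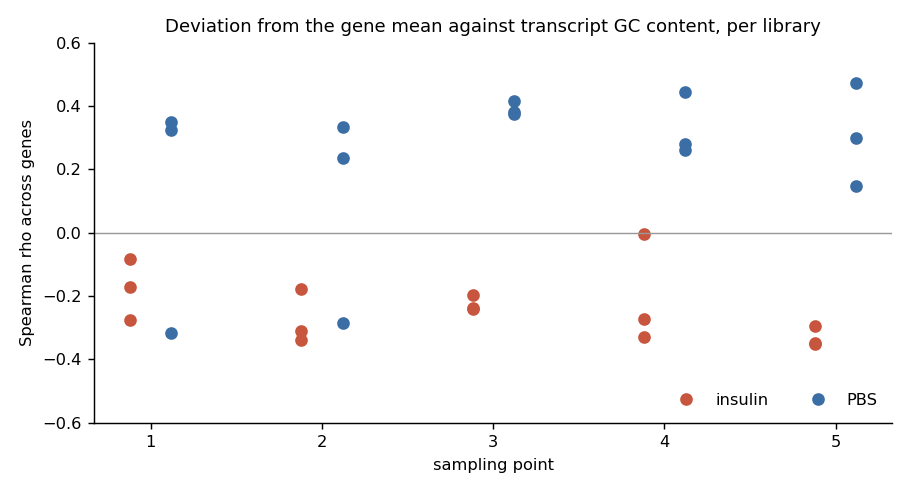
Spearman's rho, for each library and across the genes tested, between the deviation of a gene from its mean and the GC content of its transcript, by sampling point. The 15 insulin points lie below 0; 13 of the 15 PBS points lie above 0, and the 2 PBS libraries of replicate 1 at points 1 and 2 lie among the insulin libraries.

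The first comparison took each sampling point by itself and set insulin against PBS. No gene of the 43 passed at points 1 and 2, where 0.00736% and 1.35% of all genes tested did so in either direction. At point 3 Psmb3 fell, at point 4 Psmb3, Psmb6, Psme1 and Psme2 fell, and at point 5 Psmb6, Psmc3, Psme1, Psme2 and Psmg4 fell. None rose at any single point in the values as deposited. Of all genes tested 7.26%, 10.4% and 16.1% fell at points 3, 4 and 5, and 2.19%, 2.82% and 2.96% rose, so the 1, 4 and 5 of 43 genes that fell are near or under the share in the whole table. Counted at an unadjusted p under 0.05 in either direction, the genes numbered 2, 11, 11, 10 and 15 of 43 at points 1 to 5, where 7.93%, 17.8%, 27.7%, 30.3% and 34.3% of all genes did so.

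The median difference (insulin minus PBS, in log2(FPKM + 1)) of the 43 genes was -0.02, -0.25, -0.19, -0.19 and -0.07 at points 1 to 5. For all genes tested it was -0.06, -0.12, -0.14, -0.14 and -0.17. The proteasome genes thus lay lower than the whole table at points 2, 3 and 4 and above it at points 1 and 5, and the same order held after rescaling by the median ratio (0.06, -0.10, -0.02, -0.03 and 0.13 for the 43 genes). At points 3 and 4 the size of the gap to the whole table depended on the setting. It was -0.05 at both as deposited, and -0.01 and -0.02 by median-ratio scaling. With no filter on low values it was -0.19 and -0.18. The order at points 1 and 5 depended on the setting. With no filter on low values these genes lay below the whole table at both, by -0.02 and -0.07. At point 1 they lay below it by -0.02 without the 2 PBS libraries of replicate 1 at points 1 and 2, and at point 5 the gap was 0.00 with the GC trend removed. Rescaling by the median ratio put the median of all genes between -0.02 and 0.00 and turned part of the calls round. After it, 2 genes rose at point 3 (Psmc6, Psme4), 2 rose (Psmb7, Psme4) and 2 fell (Psme1, Psme2) at point 4, and 6 rose (Psmc6, Psmd1, Psmd9, Psmd12, Psmd14, Psme4) and 2 fell (Psmb6, Psmg4) at point 5. By the same scaling 5.07%, 6.80% and 8.58% of all genes rose at points 3, 4 and 5, and 3.59%, 5.99% and 8.23% fell. With the GC trend removed, Psme4 rose at point 3, Psme2 fell at point 4, and at point 5 Psmd9 rose while Psmd10 and Psmg4 fell. Of all genes 3.00%, 4.10% and 4.30% then rose at points 3, 4 and 5, and 1.66%, 3.46% and 3.45% fell. Without the 2 PBS libraries of replicate 1 at points 1 and 2, the counts at points 1 to 5 were 0, 4, 5, 6 and 7, all lower, where 5.16%, 10.4%, 12.6% and 18.0% of all genes fell at points 2 to 5.

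**Figure D3:**
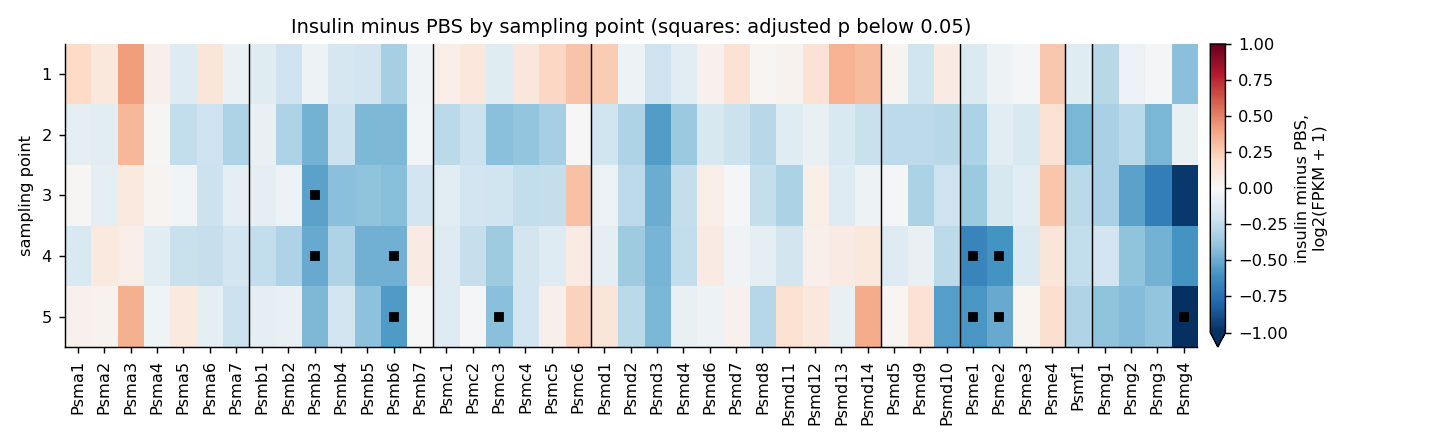
Difference between insulin and PBS in log2(FPKM + 1) for the 43 tested genes (across, by role) at the 5 sampling points (down); red is higher and blue is lower with insulin, the scale ends at 1 in both directions, and squares mark an adjusted p below 0.05. The 10 marked cells are all lower with insulin and sit in Psmb3, Psmb6, Psmc3, Psme1, Psme2 and Psmg4.

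The activator pair Psme1 and Psme2 fell at points 4 and 5, and Psme2 at point 4 had the smallest adjusted p of the 43 genes at any point. Psme1 and Psme2 encode the alpha and beta subunits of PA28, a cap that opens the core without ubiquitin or ATP and is induced by interferon-gamma. The genes lie close together on chromosome 14 of GRCm38, Psme1 at 55578123 to 55581529 on the plus strand and Psme2 at 55587441 to 55591113 on the minus strand. At point 4 Psme2 had 39.0, 29.7 and 30.5 FPKM in insulin libraries, against 57.1, 43.4 and 51.2 FPKM in PBS libraries. The groups did not overlap. Its difference was -0.60 ± 0.12 (SE, n = 3 per treatment; adjusted p = 0.00294), and -0.40 ± 0.12 with the GC trend removed (adjusted p = 0.0432). Over the 16 alternative settings the adjusted p ran from 0.00158 to 0.0934 and was above 0.05 only in the fit of the 6 libraries of that point alone. At point 5 Psme2 had 24.7, 34.8 and 31.3 FPKM in insulin libraries, against 39.95, 43.4 and 45.5 FPKM in PBS libraries, again without overlap. That difference was -0.50 ± 0.12 (adjusted p = 0.00627), and -0.26 with the GC trend removed (adjusted p = 0.201). The call was also lost under median-ratio scaling (adjusted p = 0.103), and without insulin replicate 1 (-0.37, adjusted p = 0.0591), in 5 of the 16 settings in all, over which the adjusted p ran from 0.00338 to 0.201.

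Psme1 at point 4 had 39.2, 43.5 and 55.7 FPKM in insulin libraries, against 91.0, 54.0 and 77.6 FPKM in PBS libraries. The groups overlapped by 1 library each, and PBS replicate 1 stood highest. The difference was -0.66 ± 0.19 (SE; adjusted p = 0.0228), and -0.44 with the GC trend removed (adjusted p = 0.0776). Leaving out insulin replicate 1 or 2, or PBS replicate 1 or 3, ended the call, and without PBS replicate 1 the difference was -0.50 (adjusted p = 0.114). At point 5 Psme1 had 29.3, 40.5 and 40.7 FPKM in insulin libraries, against 56.6, 44.1 and 66.5 FPKM in PBS libraries, which did not overlap. Its difference there was -0.58 ± 0.19 (adjusted p = 0.0311), and -0.31 with the GC trend removed (adjusted p = 0.22), and the call ended without insulin replicate 1 (-0.43, adjusted p = 0.176). It also ended on leaving out PBS replicate 1, at an adjusted p of 0.071, and on leaving out PBS replicate 3, at 0.155. Over all settings the adjusted p of Psme1 ran from 0.00686 to 0.136 at point 4 and from 0.0152 to 0.22 at point 5. Averaged over the 5 points the Psme1 difference was -0.41, and -0.22 with the GC trend removed. None of 15 settings ended that call (adjusted p 0.00012 to 0.0223 in limma).

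The immunoproteasome subunits, which replace the catalytic beta subunits under the same interferon signal, also fell at point 4. Psmb9 had 1.21, 1.14 and 0.988 FPKM in insulin libraries, against 9.94, 3.69 and 6.65 FPKM in PBS libraries, a difference of -1.79 (adjusted p = 0.0002; with the GC trend removed -1.51, adjusted p = 0.000962). Psmb8 differed by -1.11 and Psmb10 by -0.87 at that point, and with the GC trend removed 2 of the 3 genes passed. Psmb9 also fell at point 3 (-1.02, adjusted p = 0.0207), but not with the GC trend removed (adjusted p = 0.125). At point 5 it fell by 1.25 (adjusted p = 0.00307), and by 0.90 with the GC trend removed (adjusted p = 0.0359). Psmb10 fell at point 5 (-0.74, adjusted p = 0.0162), but not with the GC trend removed (adjusted p = 0.268). Psmb8 did not pass there (adjusted p = 0.0846). Of 7 markers of Kupffer cells, the macrophages of the liver, 3 fell at point 4 (Clec4f, Cd68 and Csf1r), and none with the GC trend removed. Their summed level was 52.7, 69.1 and 62.4 FPKM in insulin libraries, against 133, 88.0 and 67.3 FPKM in PBS libraries, so PBS replicate 1, the highest library for Psme1 and Psme2, was the highest here too. The 6 lymphocyte markers summed to 1.60, 2.90 and 2.05 FPKM in insulin libraries, against 9.32, 3.44 and 2.17 FPKM in PBS libraries, of which Ptprc alone reached the filter and did not pass, and Nkg7 was below 0.1 FPKM on average. Markers of sinusoidal endothelium summed to 41.7 to 55.3 FPKM in insulin libraries, against 58.6 to 71.6 FPKM in PBS libraries, with 1 of 6 lower (Clec4g), and none with the GC trend removed. At point 5 the Kupffer cell markers summed to 41.5, 49.5 and 58.2 FPKM in insulin libraries, against 61.9, 62.2 and 54.9 FPKM in PBS libraries, and 2 of 7 fell (Cd68 and Csf1r). The endothelial markers there summed to 37.2, 43.9 and 47.7 FPKM in insulin libraries, against 53.6, 54.9 and 58.4 FPKM in PBS libraries, without overlap, and 3 of 6 fell (Stab1, Stab2 and Oit3). None of either list passed at point 5 with the GC trend removed. Beside these marker counts, 10.4% of all genes tested fell at point 4 and 16.1% at point 5 as deposited. The lymphocyte markers summed to 1.85, 1.29 and 2.33 FPKM in insulin libraries at that point, against 2.38, 2.66 and 1.75 FPKM in PBS libraries. At point 3, where Psmb9 fell as deposited, 0 of the 7 Kupffer cell markers passed and 1 of the 6 endothelial markers fell, where 7.26% of all genes fell. In bulk tissue, fewer cells of a type and less RNA per cell cannot be told apart, and the part of these cells in the Psme1 and Psme2 differences was not tested.

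Of the remaining activators, Psme4 encodes PA200, a large nuclear activator, and passed at no single point; at point 3 it had 30.4, 29.0 and 33.3 FPKM in insulin libraries, against 24.5, 26.2 and 25.3 FPKM in PBS libraries. Those groups did not overlap, with a difference of 0.28 (adjusted p = 0.0722; 0.23 with the GC trend removed, adjusted p = 0.0426). Averaged over the 5 points it rose by 0.20 ± 0.04 (SE, n = 15 per treatment; adjusted p = 0.000927), and by 0.17 ± 0.03 with the GC trend removed (adjusted p = 0.000259), and no setting ended that call (adjusted p 1.18e-06 to 0.0196). Its 15 insulin libraries lay between 25.3 and 33.3 FPKM with a median of 30.6 FPKM, and its 15 PBS libraries between 22.6 and 29.9 FPKM with a median of 25.7 FPKM. Psme3, the nuclear PA28 gamma subunit, was at a median of 20.3 FPKM in insulin libraries and 22.0 FPKM in PBS libraries, and passed nowhere.

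In the beta ring 6 of the 7 tested subunits fell on average over the points, where 37.6% of all genes fell, and 3 (Psmb1, Psmb3 and Psmb6) fell with the GC trend removed. The median difference of the 7 was below 0 at every point in the values as deposited, and 0.01 at point 5 with the GC trend removed. Summed over the ring, the level averaged 420 ± 34.2 FPKM in insulin libraries and 502 ± 53.3 FPKM in PBS libraries (SD, n = 15 each), and after median-ratio scaling 443 and 474. Psmb6, on chromosome 11 (70525367 to 70527858), is the caspase-like catalytic subunit. At point 4 it had 61.0, 76.2 and 74.9 FPKM in insulin libraries, against 106, 97.5 and 91.9 FPKM in PBS libraries, and at point 5 it had 52.2, 82.0 and 68.4 FPKM in insulin libraries, against 97.6, 88.3 and 111 FPKM in PBS libraries. The groups were apart at both points. Its differences were -0.48 ± 0.16 at point 4 (SE; adjusted p = 0.0481) and -0.56 ± 0.16 at point 5 (adjusted p = 0.0168), and with the GC trend removed they were -0.18 (adjusted p = 0.345) and -0.19 (adjusted p = 0.313). The point 4 call was lost on leaving out any library but insulin replicate 3, with an adjusted p of up to 0.203. At point 5 it was lost without insulin replicate 1 (-0.39, adjusted p = 0.13) or without PBS replicate 3 (-0.48, adjusted p = 0.0854). The smallest adjusted p over the settings was 0.0196 at point 4 and 0.00542 at point 5. Averaged over the 5 points the Psmb6 difference was -0.45, and -0.18 with the GC trend removed. None of 15 settings ended that call (adjusted p 3.37e-06 to 0.0108 in limma).

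Psmb3, a beta subunit without a protease site, lies on chromosome 11 at 97703399 to 97713500. At point 3 it had 40.8, 43.04 and 43.4 FPKM in insulin libraries, against 54.5, 62.0 and 70.7 FPKM in PBS libraries, and at point 4 it had 35.0, 48.0 and 50.5 FPKM in insulin libraries, against 61.0, 58.2 and 69.6 FPKM in PBS libraries. Insulin libraries were lower without overlap at both points. The differences were -0.54 ± 0.17 (SE; adjusted p = 0.0457) and -0.50 ± 0.17 (adjusted p = 0.0495). With the GC trend removed they were -0.29 (adjusted p = 0.174) and -0.26 (adjusted p = 0.178), and leaving out any 1 of the 6 libraries ended the call at point 3 (adjusted p 0.0539 to 0.174). At point 4 the call was lost on leaving out any library but insulin replicate 3, with an adjusted p of up to 0.253. The smallest adjusted p over the settings was 0.00747 at point 3 and 0.0092 at point 4. Averaged over the 5 points the Psmb3 difference was -0.40, and -0.18 with the GC trend removed. None of 15 settings ended that call (adjusted p 3.96e-06 to 0.0135 in limma).

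Psmb5, the chymotrypsin-like catalytic subunit and the main target of proteasome inhibitor drugs, passed at no single point. Its insulin libraries lay between 36.9 and 54.1 FPKM with a median of 41.8 FPKM, and its PBS libraries between 37.6 and 78.6 FPKM with a median of 56.8 FPKM. Averaged over the points it fell by 0.39 (adjusted p = 0.000485), and with the GC trend removed the difference was -0.08 (adjusted p = 0.299). Psmb4, another structural beta subunit, lay between 58.7 and 89.3 FPKM with a median of 69.6 FPKM in insulin libraries, and between 60.9 and 102 FPKM with a median of 87.0 FPKM in PBS libraries. Its average difference was -0.26 (adjusted p = 0.00289), and -0.08 with the GC trend removed (adjusted p = 0.279). Psmb7 alone of the ring did not pass on average: its difference was -0.03 (adjusted p = 0.487), and 0.05 with the GC trend removed (adjusted p = 0.32).

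**Figure D4:**
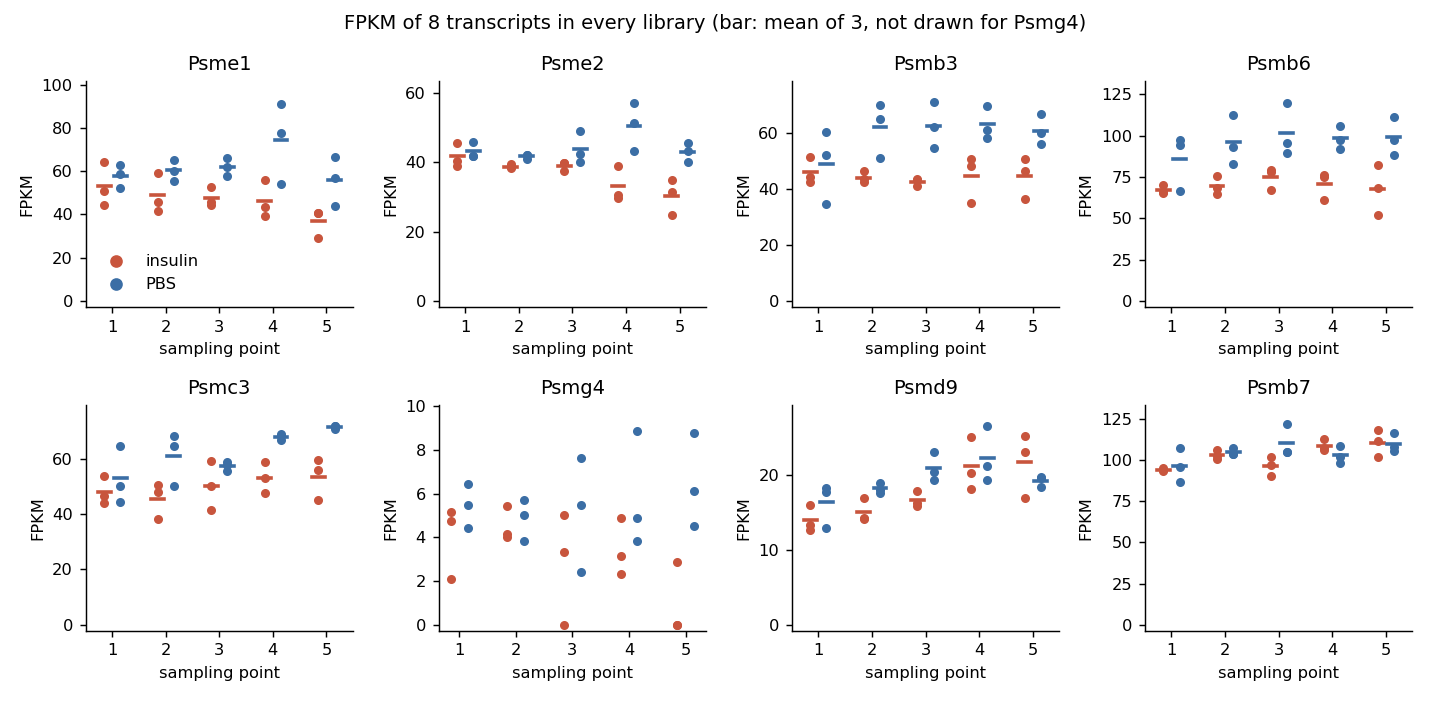
FPKM in every library by sampling point, insulin left of PBS at each point, for 8 genes: Psme1, Psme2, Psmb3 and Psmb6 above, and Psmc3, Psmg4, Psmd9 and Psmb7 below; bars are means of 3 libraries (not drawn for Psmg4), and the 3 cells of Psmg4 without a value are drawn at 0. Psme2 shows 29.7 to 39.0 FPKM with insulin and 43.4 to 57.1 FPKM with PBS at point 4, while the ranges of Psmb7 over all points overlap between the treatments.

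The alpha ring was close to level in its sum. Its summed level averaged 388 ± 38.0 FPKM in insulin libraries and 396 ± 26.1 FPKM in PBS libraries (SD, n = 15 each), and 409 and 375 after median-ratio scaling, so the direction turned with the scaling. None of its 7 tested genes passed at a single point. On average over the points 2 of the 7 fell (Psma6 and Psma7), where 37.6% of all genes fell. With the GC trend removed 1 fell (Psma6), where 11.7% of all genes did. The average difference of Psma7 was -0.17, and -0.02 with the GC trend removed, which did not pass. Psma6, the most abundant, lay between 73.4 and 103 FPKM with a median of 81.7 FPKM in insulin libraries, and between 72.3 and 107 FPKM with a median of 89.5 FPKM in PBS libraries. It fell by 0.12 on average (adjusted p = 0.0443), and the sign turned under median-ratio scaling (0.03, adjusted p = 0.558) and quantile normalization (0.03, adjusted p = 0.608). With the GC trend removed the Psma6 difference was -0.11 and passed. Psma3 was the member with the largest positive average difference, 0.25, which did not pass (adjusted p = 0.0618). Its levels were 43.1 to 91.2 FPKM with a median of 74.8 FPKM in insulin libraries, and 40.4 to 78.5 FPKM with a median of 58.3 FPKM in PBS libraries.

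Among the 6 ATPases of the cap, Psmc3 (chromosome 2, 91054009 to 91066369) fell at point 5. It had 45.1, 56.1 and 59.4 FPKM in insulin libraries, against 71.8, 70.6 and 71.9 FPKM in PBS libraries, with the PBS libraries tightly together and above the insulin ones. The difference was -0.42 ± 0.15 (SE; adjusted p = 0.0466), but -0.07 with the GC trend removed (adjusted p = 0.784) and -0.21 after median-ratio scaling (adjusted p = 0.292). It was lost in 10 of 16 settings, 5 of them with a library left out (every one but insulin replicate 3), with an adjusted p as low as 0.0268. Psmc6 was the ATPase that rose on average, by 0.18 (adjusted p = 0.0361; 0.02 with the GC trend removed, adjusted p = 0.756). Psmc1, the most abundant ATPase, lay between 46.6 and 70.7 FPKM with a median of 53.4 FPKM in insulin libraries, and between 48.2 and 72.0 FPKM with a median of 61.7 FPKM in PBS libraries.

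None of the 11 non-ATPase subunits of the cap passed at a single point, and 4 fell on average (Psmd2, Psmd3, Psmd4 and Psmd8), a share near the 37.6% of all genes. Psmd3 alone of them fell with the GC trend removed. Psmd3, a scaffold subunit of the lid, lay between 18.8 and 29.3 FPKM with a median of 24.0 FPKM in insulin libraries, and between 20.5 and 37.6 FPKM with a median of 33.9 FPKM in PBS libraries. Its average difference was -0.44 ± 0.08 (SE, n = 15 per treatment; adjusted p = 8.74e-05), and -0.13 with the GC trend removed (adjusted p = 0.041), and it passed in all 15 settings. Psmd2, which holds docking sites for ubiquitin-binding proteins, was at 44.3 to 62.4 FPKM with a median of 51.3 FPKM in insulin libraries, and 45.7 to 72.6 FPKM with a median of 63.7 FPKM in PBS libraries. Its average difference was -0.25 (adjusted p = 0.00087), and -0.10 with the GC trend removed (adjusted p = 0.0956). Psmd4, a ubiquitin receptor, was at 43.1 to 68.5 FPKM with a median of 51.3 FPKM in insulin libraries, and 44.1 to 75.4 FPKM with a median of 64.3 FPKM in PBS libraries. Psmd4 and Psmd8 turned positive with the GC trend removed (0.03 each).

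The largest difference of any gene was that of Psmg4, and it rests on empty cells. Psmg4 (chromosome 13, 34162964 to 34178173), which with Psmg3 helps to form the alpha ring, was listed with no value in 3 insulin libraries, and these cells were set to 0. At point 5 it had 0, 0 and 2.86 FPKM in insulin libraries, against 4.53, 6.14 and 8.79 FPKM in PBS libraries. The fitted difference was -2.22 ± 0.51 (SE; adjusted p = 0.00523). It was -1.86 with the GC trend removed (adjusted p = 0.0246), and -0.92 with the empty cells left missing, which leaves 1 insulin library at that point (adjusted p = 0.163). Over the settings the adjusted p ran from 0.000898 to 0.163. Averaged over the points Psmg4 fell by 0.85 (adjusted p = 0.00425), with a difference of -0.60 with the GC trend removed (adjusted p = 0.0553).

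Psmg1, Psmg2 and Psmg3, the other assembly chaperones of the core, passed at no single point and fell in the average over the points. With Psmg4 that makes 4 of 4, where 37.6% of all genes fell. With the GC trend removed 1 of the 4 fell (Psmg2), where 11.7% of all genes did. Psmg1 lay between 5.72 and 12.1 FPKM with a median of 9.53 FPKM in insulin libraries, and between 7.33 and 14.8 FPKM with a median of 11.5 FPKM in PBS libraries. Its average difference was -0.30 (adjusted p = 0.00607), and -0.15 with the GC trend removed (adjusted p = 0.153). Psmg3 lay between 3.32 and 7.68 FPKM with a median of 5.09 FPKM in insulin libraries, and between 4.63 and 9.86 FPKM with a median of 6.90 FPKM in PBS libraries. Its average difference was -0.41 (adjusted p = 0.00296), and -0.13 with the GC trend removed (adjusted p = 0.30). Psmg2 fell by 0.34 on average (adjusted p = 0.0038), and by 0.30 with the GC trend removed (adjusted p = 0.00991), but did not pass by median-ratio scaling (adjusted p = 0.0502) or quantile normalization (adjusted p = 0.0605). Psmd10, the cap chaperone also called gankyrin, lay between 2.72 and 7.71 FPKM with a median of 5.63 FPKM in insulin libraries, and between 4.90 and 8.88 FPKM with a median of 7.17 FPKM in PBS libraries. Its average difference was -0.24 (adjusted p = 0.0294), and -0.30 with the GC trend removed (adjusted p = 0.00881). That call was lost in 6 of 15 settings, among them median-ratio scaling (adjusted p = 0.302) and the fits without insulin replicate 1 or PBS replicate 1, and the adjusted p ran up to 0.329.

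Psmf1 encodes PI31, which binds the core and inhibits it in purified preparations. It lay between 3.51 and 6.57 FPKM with a median of 4.61 FPKM in insulin libraries, and between 5.28 and 7.06 FPKM with a median of 5.81 FPKM in PBS libraries. It fell by 0.28 on average (adjusted p = 0.00138), and with the GC trend removed the difference was -0.10 (adjusted p = 0.182).

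Averaged over the 5 points, 21 of the 43 genes fell and 2 rose (Psmc6 and Psme4), where 37.6% of all genes tested fell and 7.89% rose. The median difference was -0.12 for these genes and -0.13 for all genes tested. By median-ratio scaling 12 rose and 9 fell, where 20.0% of all genes rose and 20.4% fell. By quantile normalization 12 rose and 10 fell, where 19.9% of all genes rose and 20.0% fell. With treatment and replicate number together as a random effect 1 rose and 16 fell, where 5.39% of all genes rose and 29.2% fell, and the calls of Psma6, Psma7, Psmb2, Psmc6, Psmd4 and Psmd10 were lost. With the GC trend removed 1 rose (Psme4) and 8 fell (Psma6, Psmb1, Psmb3, Psmb6, Psmd3, Psmd10, Psme1 and Psmg2), all 9 of them among the 23, where 11.7% of all genes fell and 12.9% rose. Leaving out 1 treatment's replicate number at all points gave between 15 (without PBS replicate 3) and 26 called genes.

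Within the 43 genes the order of the average differences ran with GC content. Transcript GC content was 37.0% (Psmc6) to 57.1%, with a median of 49.8%, against 50.3% for all genes tested. Across the 43 genes Spearman's rho between GC content and the average difference was -0.76, and across 13580 genes it was -0.59, as a description over genes that share the same 30 libraries. Of 5 equal classes of GC content, the lowest (up to 45.0%) held 8 of these genes with a median difference of 0.05, and all its genes had 0.07. The highest class (over 55.6%) held 4 of them with a median of -0.42, and all its genes had -0.32. With the trend removed, rho was -0.25 across the 43 genes and 0.01 across all genes.

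**Figure D5:**
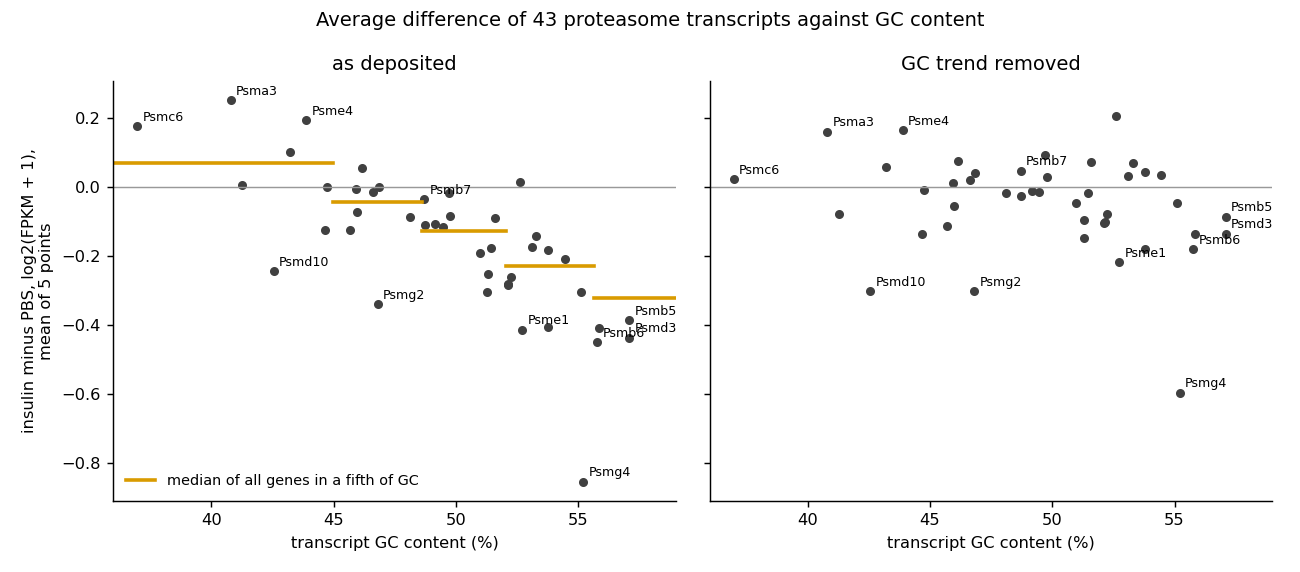
Average difference between insulin and PBS over the 5 points, in log2(FPKM + 1), of the 43 genes against the GC content of their transcripts (percent), as deposited on the left and with the GC trend of each library removed on the right; bars on the left are medians of all genes in 5 equal classes of GC content. On the left Psma3, Psme4 and Psmc6 lie highest at low GC content and Psmb6, Psmd3 and Psme1 low at high GC content (Spearman's rho -0.76); on the right rho is -0.25.

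The sequences below show this property of the transcripts. They are the first 90 bases of the longest coding exon of the 3 genes with the lowest average difference among those without empty cells (Psmb6, Psmd3 and Psme1) and of the 3 with the highest (Psma3, Psme4 and Psmc6), from the GENCODE M21 transcripts on GRCm38, 5′ to 3′ on the coding strand, with G and C in capitals. The GC content of these stretches was 52.2%, 75.6% and 51.1% for the first 3 and 36.7%, 41.1% and 38.9% for the last 3. Over the whole coding sequences it was 57.0%, 57.4% and 51.7% for the first 3 and 42.4%, 42.6% and 41.8% for the last 3.
Psmb6, exon 5, chr11:70527179-70527268, plus strand: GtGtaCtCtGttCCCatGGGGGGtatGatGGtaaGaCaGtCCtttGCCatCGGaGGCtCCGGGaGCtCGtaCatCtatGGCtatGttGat
Psmd3, exon 1, chr11:98682730-98682819, plus strand: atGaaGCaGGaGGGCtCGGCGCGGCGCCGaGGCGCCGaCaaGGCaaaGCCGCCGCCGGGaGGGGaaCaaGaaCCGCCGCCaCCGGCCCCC
Psme1, exon 4, chr14:55579931-55580020, plus strand: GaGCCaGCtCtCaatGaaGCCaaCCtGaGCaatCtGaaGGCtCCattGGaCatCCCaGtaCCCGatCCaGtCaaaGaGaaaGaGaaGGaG
Psma3, exon 3, chr12:70983319-70983408, plus strand: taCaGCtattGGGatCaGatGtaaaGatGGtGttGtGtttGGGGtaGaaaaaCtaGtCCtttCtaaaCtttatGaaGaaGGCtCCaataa
Psme4, exon 10, chr11:30810783-30810872, plus strand: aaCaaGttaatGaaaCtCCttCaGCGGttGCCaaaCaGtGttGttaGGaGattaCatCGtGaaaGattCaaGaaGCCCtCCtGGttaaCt
Psmc6, exon 9, chr14:45340773-45340862, plus strand: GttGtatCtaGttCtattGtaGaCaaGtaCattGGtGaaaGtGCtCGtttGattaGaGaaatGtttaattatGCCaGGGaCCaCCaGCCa

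A further question was whether the difference between treatments, or the level within a treatment, varied with the sampling point. The difference depended on the point for 0 of the 43 genes by a moderated F test in limma (1 at an unadjusted p under 0.05), where 1.77% of all genes passed and 11.6% had an unadjusted p under 0.05. Within insulin libraries 2 varied among points, Psmd9 (adjusted p = 0.0137) and Psme2 (adjusted p = 0.0351), where 13.3% of all genes did. In PBS libraries 0 passed (4 at an unadjusted p under 0.05), where 3.27% of all genes did and 14.3% had an unadjusted p under 0.05. A pass in insulin and not in PBS is no test of a difference between them. The count in insulin libraries was 0 without insulin replicate 2 and 1 without insulin replicate 3 or without any PBS replicate number.

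Psmd9 encodes p27, a chaperone that helps to assemble the ATPases of the cap. In insulin libraries it had 12.6, 16.0 and 13.3 FPKM at point 1, then 14.1, 14.2 and 17.0 FPKM at point 2 and 16.3, 15.8 and 17.8 FPKM at point 3. At point 4 the insulin libraries had 18.1, 20.3 and 25.1 FPKM, and at point 5 they had 16.9, 23.1 and 25.2 FPKM. The libraries of points 4 and 5 lay above those of point 1 throughout. In PBS libraries it had 13.0, 17.8 and 18.2 FPKM at point 1, 19.3, 21.2 and 26.5 FPKM at point 4 and 18.4, 19.8 and 19.6 FPKM at point 5. With the GC trend removed the F test in insulin libraries gave an adjusted p of 6.7e-05 for Psmd9 and 0.0889 for Psme2, and Psmb7 passed as well (adjusted p = 0.0265). In PBS libraries Psmc5, an ATPase, then passed (adjusted p = 0.0257). Of all genes 17.5% passed in insulin libraries and 4.39% in PBS libraries with the trend removed. It had 27.5, 30.0 and 33.4 FPKM in PBS libraries at point 1, and between 38.1 and 47.4 FPKM in those of points 2 to 5.

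Genes that regulate the proteasome were described from a list chosen for this purpose. Of 8 tested regulators, 1 rose and 1 fell at point 3, likewise at point 4, and 2 fell at point 5. Among all genes tested 2.19%, 2.82% and 2.96% rose at points 3, 4 and 5, and 7.26%, 10.4% and 16.1% fell. After removal of the GC trend 2 rose (Foxo1 and Foxo3) and 1 fell (Ddi2) at points 3 and 4, and 3 rose (Foxo3, Foxo4 and Nfe2l1) and 1 fell (Nfe2l2) at point 5. Among all genes 3.00%, 4.10% and 4.30% then rose at points 3, 4 and 5, and 1.66%, 3.46% and 3.45% fell. Ddi2, the protease that cuts Nfe2l1 into its active form, fell at all 3 of those points. It averaged 32.0 ± 1.99 FPKM in insulin libraries and 47.4 ± 2.67 FPKM in PBS libraries at point 3 (SD, n = 3 each), a difference of -0.56 (adjusted p = 0.00591), and -0.40 with the GC trend removed (adjusted p = 0.012). At point 5 its difference was -0.40 (adjusted p = 0.0234), and -0.22 with the GC trend removed (adjusted p = 0.166). Nfe2l1 itself passed at no single point: it averaged 29.6 ± 2.68 FPKM in insulin libraries and 37.5 ± 3.95 FPKM in PBS libraries at point 3 (adjusted p = 0.0591). At point 5 its difference was 0.05 (adjusted p = 0.779), but 0.36 with the GC trend removed (adjusted p = 0.00539).

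Foxo1, a factor held out of the nucleus by insulin signalling, rose at points 3 and 4. It averaged 9.42 ± 2.90 FPKM in insulin libraries and 6.12 ± 0.666 FPKM in PBS libraries at point 3 (SD, n = 3 each), a difference of 0.52 (adjusted p = 0.0347; 0.60 with the GC trend removed, adjusted p = 0.0191). Nfe2l2, the antioxidant factor, fell at point 5, at 12.6 ± 1.36 FPKM in insulin libraries and 17.7 ± 1.80 FPKM in PBS libraries (adjusted p = 0.0346; with the GC trend removed adjusted p = 0.0474). Among the partners of the proteasome, Txnl1, a thioredoxin bound to the cap, rose at point 3 (0.49, adjusted p = 0.036; with the GC trend removed adjusted p = 0.0407), and Usp14, the deubiquitinase of the cap, rose at points 4 and 5. Usp14 averaged 14.9 ± 0.772 FPKM in insulin libraries and 10.9 ± 0.608 FPKM in PBS libraries at point 5 (adjusted p = 0.00652; with the GC trend removed adjusted p = 0.0681), and at point 4 its adjusted p was 0.0298, and 0.229 with the GC trend removed.

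Of 6 tested genes for ubiquitin and the enzymes that activate it, 1 fell at point 2, 1 at point 4 and 2 at point 5. Among all genes 1.35% passed at point 2 in either direction, and 10.4% and 16.1% fell at points 4 and 5. With the GC trend removed 1 fell at point 2, where 45 of all 13589 genes tested fell, and 0 passed at points 4 and 5. Uba1, an enzyme that activates ubiquitin, fell at point 5, at 26.6 ± 3.39 FPKM in insulin libraries and 34.7 ± 2.58 FPKM in PBS libraries (SD, n = 3 each; adjusted p = 0.0356 in limma), and did not pass with the GC trend removed (adjusted p = 0.291). Of 8 tested genes for p97, the ATPase that extracts proteins for degradation, and its cofactors, 1 rose at point 5 (Ubxn7; 0.40, adjusted p = 0.026), where 2.96% of all genes rose. Ubxn7 did not pass with the GC trend removed (adjusted p = 0.203), and Nploc4 then rose (0.31, adjusted p = 0.0311).

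Promoters were searched for the antioxidant response element bound by Nfe2l1 and Nfe2l2, written TGACNNNGC and read on both strands, in RefSeq windows of 250 bases before to 50 bases after the start. It was present in 6 of 40 windows of these genes (15%, for 37 matched genes) and in 12.4% of 32851 windows of all genes; no other motif was searched. A match is a description of letters and not a site of binding. The matches of Psme4 and Psmb6 lie at the start site and are named only. The windows around 4 of the matches, with the motif in capitals, are given because they lie in promoters of a catalytic subunit, of the chaperone that varied among points, and of cap subunits. They are written 5′ to 3′ in the direction of the gene, on GRCm38.p6.
Psmb5, chr14:54618026-54618050, minus strand: tgaagttgTGACGTCGCggcgttgc
Psmd9, chr5:123228151-123228175, plus strand: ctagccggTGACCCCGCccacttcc
Psmc6, chr14:45329589-45329613, plus strand: agccagtaGCTAAGTCAggcattgc
Psmd12, chr11:107479278-107479297, plus strand: tctGCTGTGTCAcatttgcc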

How the data were processed

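Libraries were made from polyadenylated RNA with a directional kit, per the labels' protocols. The submitters' processing notes name HISAT2 2.1.0, SAMtools 1.9 and StringTie 2.0.3 with build GRCm38, and the sources used here give neither annotation nor strand setting. The authors deposited FPKM per gene, so no count test was run. Depth was read from low values of genes with a single transcript; 39.5% to 47.4% of these lay within 0.05 of whole reads, so no reads were recovered and no counting interval is given. Over 30 pairs of replicates at most 0.0174% of values were identical. Cells without a value (32.2% of the table) were set to 0 FPKM.

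Testing kept 13589 genes, those reaching 1 FPKM in 3 libraries or more. On the scale log2(FPKM + 1), where changes of low genes look smaller than they are, limma 3.58.1 (R 4.3.3) estimated 10 group means with an intensity trend, leaving 20 residual degrees of freedom. Contrasts were insulin minus PBS, by point and averaged over points. Moderated F tests covered changes among points. Two-sided p-values received Benjamini-Hochberg adjustment over all genes tested (threshold 0.05), and a gene is said to rise or fall where it passed.

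Transcript GC content was the median over a gene's protein-coding transcripts in GENCODE M21 (over all its transcripts where it has none), and its trend was removed per library by lowess. The fit was tested on simulated data with known changes. Libraries were grouped by title. The design text calls the triplicates biological, but no label ties a library to an animal, so p-values may cover technical spread only. Members and lists were chosen with earlier results of these data known. Values are given for the 12 members with the smallest adjusted p at a single point, the most abundant of each role and the catalytic subunits. Psma3, Psme3, Psmc5, Psmc6, Psmd8, Psmg2 and the least variable genes are named in addition, chosen after their values were seen. Alternatives were other pseudocounts, filters and scalings, the replicate block, series as a random effect, fits by point and libraries left out. Some genes of the lists are not reported here.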

Additional observations from a re-analysis of the deposited data

How the results depend on the processing

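At single points genes were called higher under median-ratio scaling, quantile normalization and GC trend removal. Counts of called proteasome genes at points 3, 4 and 5 were 1, 4 and 5 as reported. Over all 13589 genes tested, 1284, 1799 and 2596 were called at these points. Proteasome counts were 0, 1 and 3 with no filter on low values, where 810, 1226 and 2039 of 29117 genes were called. By median-ratio scaling they were 2, 4 and 8, where all genes gave 1177, 1738 and 2285. Quantile normalization gave 2 at point 3, where all genes gave 1172. A filter at a mean of 5 FPKM gave 2 at point 3, where 1006 of 6707 genes were called. The fits of 6 libraries gave 3, 0 and 0. With the GC trend removed there was 1 at point 4, 3 at point 5 and 9 on average, where all genes gave 1027, 1053 and 3351. Without the PBS libraries of replicate 1 at points 1 and 2, counts were 4 at point 2 and 5 at point 3. All genes then gave 819 and 1752. With a library left out, counts were 0 at point 1 and from 0 to 1 at point 2. They were 0 at point 3, from 1 to 10 at point 4 and from 1 to 7 at point 5. Leaving out 1 treatment's replicate number at all points gave from 15 to 26 on average. It gave from 0 to 2 for the F test in insulin and from 0 to 1 for that in PBS. Counts over all genes are not given for the fits of 6 libraries or with libraries left out. The F test in PBS gave 1 by median-ratio scaling, quantile normalization, the replicate block, series as a random effect and GC trend removal. In that order all genes gave 543, 567, 551, 635 and 596.

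The replicate numbers of the titles did not pair the libraries (15 correlations of deviations from -0.11 to 0.12, 1 of them over 0.1, and 5 libraries closest to their own number). With the replicate block the counts at points 2 to 5 were 2, 6, 8 and 8, and the 33 calls of proteasome genes were kept. Calls over all genes rose as well. They were 184, 1284, 1799 and 2596 as reported, and 450, 1957, 2344 and 3173 with the block. Signs turned for Psma6 (0.0311) and Psmb1 (0.0301) under median-ratio scaling and for Psma6 (0.0288) and Psmb1 (0.0138) under quantile normalization, and for Psmd4 (0.0348) and Psmd8 (0.0326) with the GC trend removed. The causes were not tested. Low FPKM limits Psmg4, whose call at point 5 rests on empty cells.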
